A study of Mus musculus with 2 samples.

Results

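The genes described here are 10 components of fibroblast growth factor (FGF) signalling in the mouse ureter. They are the ligand genes Fgf7 and Fgf10, the receptor genes Fgfr1 and Fgfr2, the feedback inhibitor genes Spry1, Spry2, Spry4 and Dusp6, and the transcription factor genes Etv1 and Etv5. Members were taken by gene name from the array files, which gave 14 of the 39429 probes on the array, in 32 of its 43020 non-control spots. Of the 10 genes, 9 were well above background and entered the test with 20508 genes in all.

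Ureters of NMRI mouse embryos at stage E14.5 were measured on 2 dye-swapped 2-colour Agilent arrays. The RNA labelled Gata2cKO came from embryos of genotype Tbx18(cre/+);Gata2(fl/fl), in which Cre recombinase is made from the Tbx18 locus and both Gata2 alleles are flanked by loxP sites. The control RNA came from embryos of genotype Tbx18(+/+);Gata2(fl/?), which have at least 1 floxed Gata2 allele and no Cre. Both RNAs were female on array 1 and male on array 2, and the Gata2cKO RNA carried Alexa Fluor 647 on array 1 and 555 on array 2, so an effect of sex cannot be told apart from one of the dye. Tbx18 marks the mesenchyme around the ureter, and the Tbx18 allele with Cre was absent from the controls. The labels do not say whether an RNA was pooled from several embryos. The p-values rest on the spread between these 2 arrays, which limma moderated with the variance over all genes. Whether that spread covers the one between embryos is thus not known.

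FGF ligands bind receptor tyrosine kinases on the cell surface together with heparan sulfate, and the receptors signal through the RAS and ERK kinases. In organs with an epithelium and a mesenchyme, Fgf7 and Fgf10 are typically made by the mesenchyme and act on the epithelial splice form of Fgfr2. ERK activity switches on ETS factors such as Etv1, Etv4 and Etv5, and it also switches on Sprouty proteins and the ERK phosphatase Dusp6, which dampen the signal.

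The 2 Fgfr2 probes lie on the minus strand of chromosome 7 (mm9) at chr7:137307473-137307532 and chr7:137307455-137307514. They are shown because they overlap by 42 bases, in capitals, so their ratios are not independent readings. The first is open in its first frame until it closes with TGA.
Fgfr2, probe with 1 spot: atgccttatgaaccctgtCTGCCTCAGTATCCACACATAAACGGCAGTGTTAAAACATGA
Fgfr2, probe with 10 spots: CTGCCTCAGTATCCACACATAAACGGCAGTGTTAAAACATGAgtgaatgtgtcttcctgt
The probes were not assigned to exons, so which splice forms of Fgfr2 they read was not tested.

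Fgfr1 had 3 probes, and the Fgfr1 probe at chr8:26684061-26684120 (mm9, plus strand) is shown. It is open in its first frame throughout, as is the Fgfr1 probe at chr8:26685820-26685879. The probe at chr8:26685072-26685131 was the brightest and stood for the gene, so the printed probe is not the source of the gene's values.
Fgfr1: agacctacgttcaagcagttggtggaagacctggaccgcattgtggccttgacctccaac

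The first 30 of the 60 bases are given for the probes of Fgf7 and Etv1, the genes with the largest ratios. The Fgf7 stretch lies at chr2:125916134-125916163, and the Etv1 stretches at chr12:39593054-39593083 and chr12:39594622-39594651 (mm9, plus strand).
Fgf7: gctcttcccacaaataatcatgcttatttc
Etv1, probe above background: tcacaggccagtagcattttatgtatctgg
Etv1, probe not above background: gactctgacttactctaacggatcaaaaga
The 2 Etv1 probes start 1568 bases apart. No exons were assigned to the probes, since gene models on mm9 were not used here.

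The comparison asks how ureteric gene expression differs once Tbx18-driven Cre has acted on floxed Gata2. Gata2 itself gave log2 ratios of 0.33 and 0.54 (adjusted p = 0.41), which is no decrease, and which part of the gene is deleted is not in the labels. This probe thus gives no check of the labels, and all directions were taken from the dyes named there. The 647 channel was brighter on both arrays (median spot signals 753.6 and 754) than the 555 channel (433.1 and 428.1), so signals are given after normalization. Over the brightest 25% of genes the arrays correlated at r = -0.572 across genes, and over the other genes at 0.389. Dusp6, Etv5, Fgfr1 and Fgfr2 were the 4 members among these brightest genes.

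Fgf7 and Etv1 were lower in the RNA labelled Gata2cKO on both arrays, by means of 1.52-fold and 1.71-fold, and the other 7 members tested stayed within 1.14-fold of control on average. None of the 9 passed an adjusted p of 0.05 over all genes (limma), a threshold that 0.0878% of all genes tested passed. At an unadjusted p under 0.05 the 2 lower members were Fgf7 and Etv1, while 3.41% of all genes were lower by that rule. Of the 9 members, 4 were lower on both arrays (26.2% of all genes), 2 were higher on both (27%) and 3 had opposite signs (46.8%). With loess normalization, no member was at least 1.5-fold lower (0.439% of all genes) or higher (0.273%) on both arrays. With each probe tested on its own, none of the 12 member probes above background passed either (0.0585% of all probes). The median log2 ratio of the members was -0.0664 (-0.0741 on array 1 and 0.0058 on array 2), and over all genes tested it was 0.0028.

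**Figure D1:**
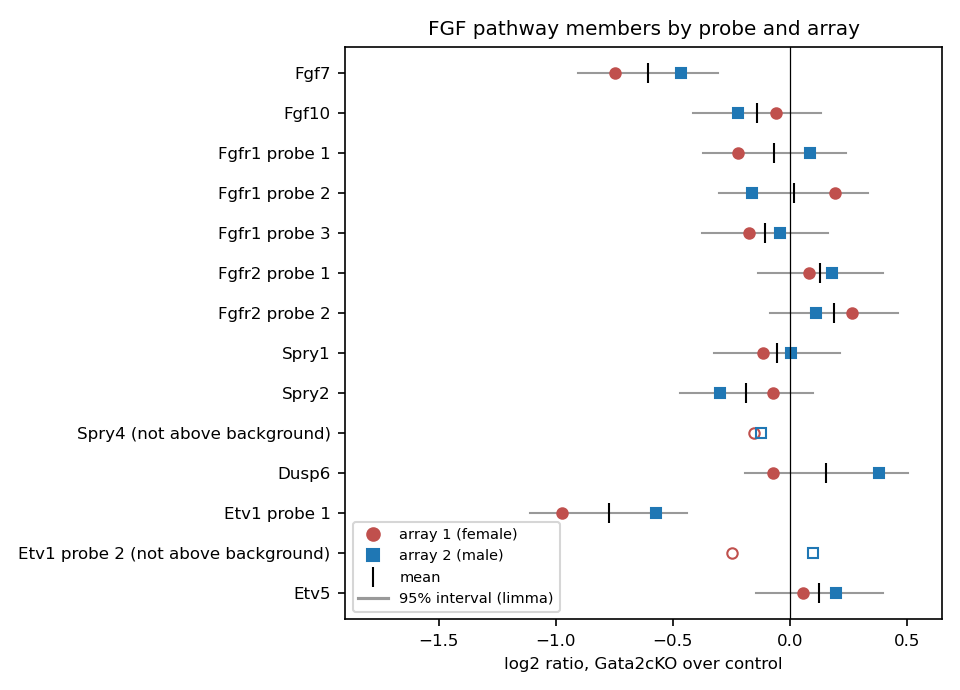
Log2 ratio of Gata2cKO over control for each of the 14 member probes, by array, with the mean and the 95% interval from limma for the probes tested (open symbols: probes not well above background, which have no test). The intervals of Fgf7 and of the first Etv1 probe lie below 0 and those of all other probes tested include 0.

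Fgf7 encodes a secreted ligand, also called keratinocyte growth factor, that acts on epithelia. Its normalized log2 signal was 12.63 in control and 11.88 in Gata2cKO RNA on array 1. On array 2 the log2 signal of Fgf7 was 12.72 in control and 12.26 in Gata2cKO RNA. Both control RNAs lay above both Gata2cKO RNAs for Fgf7, with no overlap. The share of all genes tested that separate in this way is not given, here or for the genes below. Fgf10, Spry2 and Etv5 also separated, at limma adjusted p of 0.864, 0.812 and 0.892, so a separation of 2 values from 2 is weak. The log2 ratios of Fgf7 were -0.75 and -0.46, with a mean of -0.61 ± 0.201 (SD, n = 2; 95% interval -0.906 to -0.308; limma adjusted p = 0.231). The difference of Fgf7 was larger than the spread between the arrays and did not pass the adjustment over all genes. In size, Fgf7 lay at percentile 98.7 of all genes tested. Fewer cells that make Fgf7 and less Fgf7 RNA in each cell cannot be told apart in RNA of whole ureters.

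Fgf10 encodes the ligand of the same receptor form that drives branching of lung and other epithelia. The log2 signals of Fgf10 were 9.66 in control and 9.60 in Gata2cKO RNA on array 1, and 9.88 and 9.66 on array 2. Both Gata2cKO values of Fgf10 lay below both control values, but the nearest were almost equal, at 9.659 and 9.662. The mean log2 ratio of Fgf10 was -0.14 ± 0.114 (SD, n = 2; 95% interval -0.416 to 0.131; limma adjusted p = 0.864). Fgf10 was printed in 10 spots an array, which share 1 RNA pair and so show technical spread alone. The log2 ratio over the spots of Fgf10 ran from -0.144 to -0.00381 on array 1, with a median of -0.0572. On array 2 it ran from -0.297 to -0.1, with a median of -0.215. All Fgf10 spots were thus on the lower side on both arrays, and the ranges of the arrays overlapped. In the authors' deposited table Fgf10 stood at log2 values of -0.143 and -0.991. The mean there was -0.567, against -0.14 from the scanner signals, and came mostly from array 2.

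**Figure D2:**
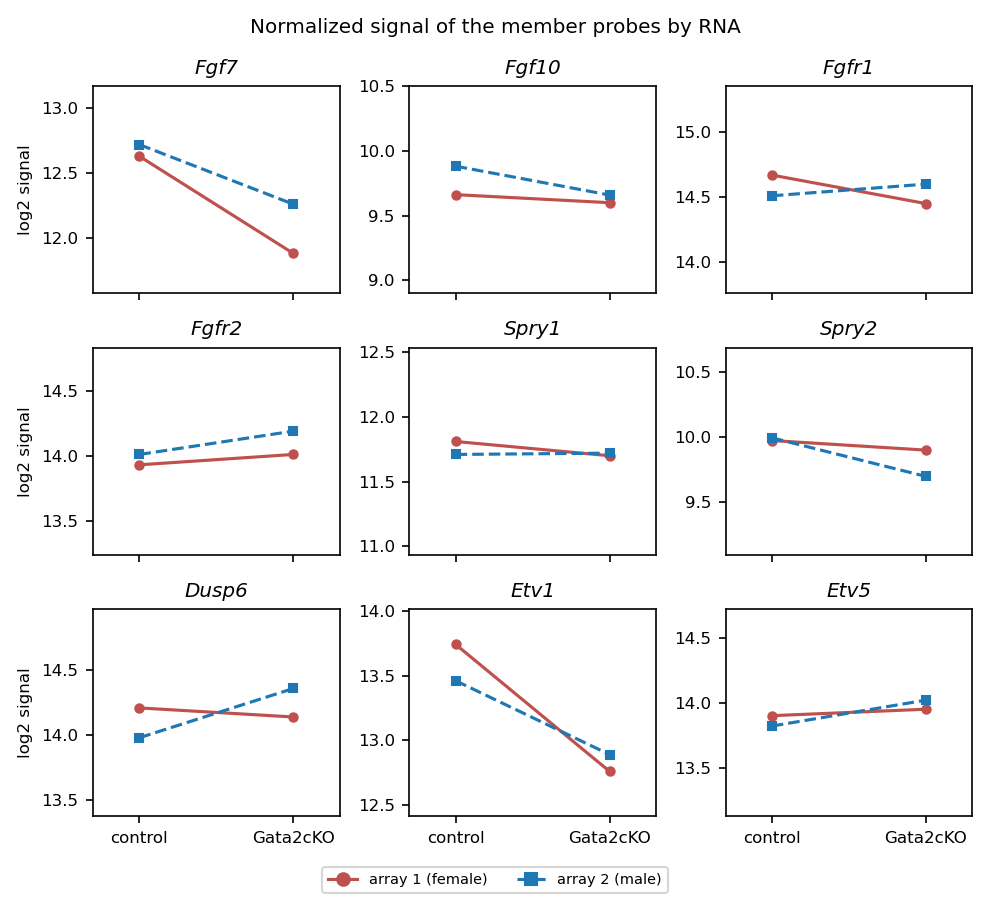
Normalized log2 signal of the 9 members tested (1 probe a gene, loess and Aquantile), in control and Gata2cKO RNA of array 1 (circles, solid lines) and array 2 (squares, dashed lines); each panel spans 1.6 log2 units and levels are not comparable between panels. Both lines drop most for Fgf7 and Etv1 and less for Fgf10 and Spry2, and the lines of Dusp6, Fgfr1 and Spry1 run in opposite directions.

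The receptor genes showed small ratios. Fgfr1, whose mesenchymal form binds FGFs from epithelia, had log2 signals of 14.67 in control and 14.45 in Gata2cKO RNA on array 1. On array 2 the signals of Fgfr1 were 14.51 in control and 14.60 in Gata2cKO RNA, so the groups overlapped. Its mean log2 ratio over the arrays was -0.07 ± 0.218 (SD, n = 2; 95% interval -0.372 to 0.239; limma adjusted p = 0.972), and the mean was -0.0192 in the authors' deposited table. These values are from the Fgfr1 probe at chr8:26685072-26685131. The probe at chr8:26685820-26685879 gave ratios of 0.19 and -0.16 on arrays 1 and 2, and the printed probe gave -0.17 and -0.04. Over the 3 Fgfr1 probes, 1 was lower on both arrays, and the remaining probes had opposite signs on the arrays and opposite to each other.

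Fgfr2, the receptor gene of Fgf7 and Fgf10, was slightly higher on both arrays by both of its probes. Its brighter probe, the one with 1 spot, had log2 signals of 13.93 in control and 14.01 in Gata2cKO RNA on array 1, and of 14.01 and 14.19 on array 2. The groups met at 14.01. The mean log2 ratio of this Fgfr2 probe was 0.13 ± 0.0708 (SD, n = 2; 95% interval -0.135 to 0.395; limma adjusted p = 0.879). The Fgfr2 probe with 10 spots gave 0.264 ± 0.0292 (SD over 10 spots) on array 1 and 0.113 ± 0.032 on array 2. Spots of the second Fgfr2 probe ran from 0.228 to 0.301 on array 1 and from 0.0772 to 0.167 on array 2, so all were positive and the arrays did not overlap. The spread between arrays of Fgfr2 was therefore larger than that between spots of an array. In the authors' deposited table the brighter Fgfr2 probe had a mean of 0.349, against 0.13 from the scanner signals. Urothelial markers come from the epithelium where the receptor form of Fgf7 and Fgf10 is made. These markers were higher on both arrays in 10 of 16 genes (27% of all genes tested), with a median of 0.172. Their summed signal was 298800 and 356000 in control and 342900 and 383400 in Gata2cKO RNA, and all 16 were above background. Their part in the Fgfr2 ratio was not tested.

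Among the feedback inhibitors, Sprouty genes encode proteins that block the path from receptors to ERK. Spry1 had log2 signals of 11.81 in control and 11.70 in Gata2cKO RNA on array 1, and of 11.71 and 11.72 on array 2, so the groups overlapped. The mean log2 ratio of Spry1 was -0.06 ± 0.0868 (SD, n = 2; limma adjusted p = 0.975). Spry1 stood at 0.132 and -0.561 in the authors' deposited table, with a mean of -0.214. Spry2 had log2 signals of 9.97 and 9.90 on array 1 and of 9.99 and 9.69 on array 2, control first. Both control values of Spry2 lay above both Gata2cKO values, with a mean log2 ratio of -0.19 ± 0.158 (SD, n = 2; 95% interval -0.471 to 0.0988; limma adjusted p = 0.812). For Spry2 the ratio on array 2 (-0.30) was larger in size than that on array 1 (-0.07). Spry4 was not well above background in any of the 4 RNAs and was not tested. Its normalized log2 signals were 7.23 and 7.31 in control and 7.07 and 7.19 in Gata2cKO RNA, on arrays 1 and 2.

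Dusp6 encodes the cytoplasmic phosphatase that removes the activating phosphates of ERK. The log2 signals of Dusp6 were 14.21 in control and 14.14 in Gata2cKO RNA on array 1, and 13.98 and 14.36 on array 2. The Dusp6 ratios of -0.07 and 0.38 differed by 0.452, more than for any other of the 9 members, and their SD lay at percentile 89.7 of all genes tested. The mean log2 ratio of Dusp6 was 0.15 ± 0.32 (SD, n = 2; 95% interval -0.196 to 0.505; limma adjusted p = 0.9). In the authors' deposited table the mean of Dusp6 had the opposite sign (-0.03).

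Etv1 and Etv5 encode ETS factors of the same subfamily, and they gave ratios of opposite sign. For Etv1, the log2 signal was 13.74 in control and 12.76 in Gata2cKO RNA on array 1. On array 2 the log2 signal of Etv1 was 13.46 in control and 12.89 in Gata2cKO RNA. Both control RNAs lay above both Gata2cKO RNAs for Etv1, and their nearest values were 13.46 and 12.89. The log2 ratios of Etv1 were -0.975 and -0.57, with a mean of -0.77 ± 0.286 (SD, n = 2; 95% interval -1.11 to -0.439; limma adjusted p = 0.197). Among the 5370 genes lower on both arrays, Etv1 ranked 98 and Fgf7 159 by the smaller of their ratios. The other Etv1 probe was not well above background in any RNA, with ratios of -0.25 and 0.10, and gives no second reading.

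Etv5 had log2 signals of 13.90 in control and 13.95 in Gata2cKO RNA on array 1, and of 13.82 and 14.02 on array 2. Both Gata2cKO values of Etv5 lay above both control values, by 0.05 and 0.20 within the arrays. The mean log2 ratio of Etv5 was 0.13 ± 0.101 (SD, n = 2; 95% interval -0.145 to 0.396; limma adjusted p = 0.892), and the mean was 0.0402 in the authors' deposited table. The intervals of Etv1 and Etv5 do not overlap, but the difference between the 2 genes was not tested.

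**Figure D3:**
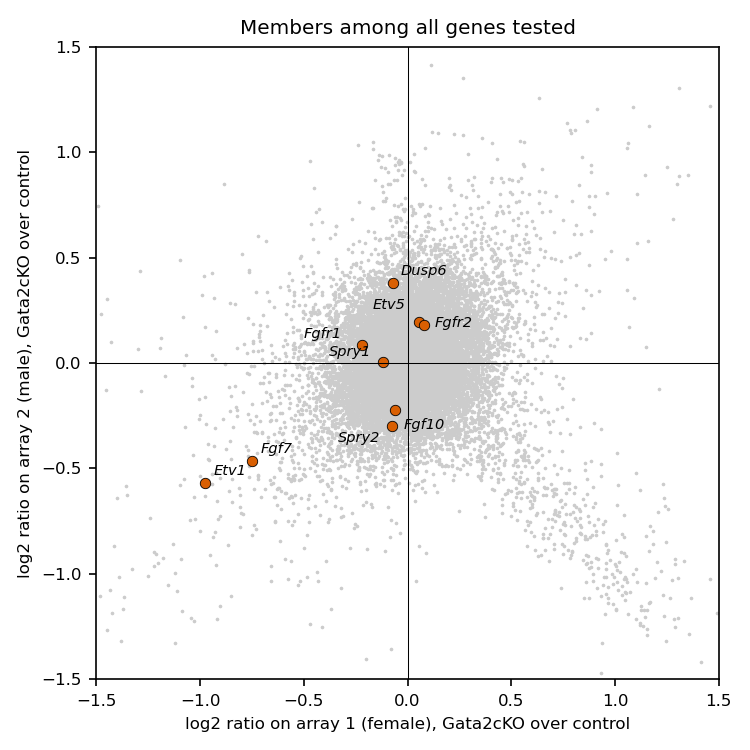
Log2 ratio of Gata2cKO over control on array 1 (horizontal) against array 2 (vertical) for all 20508 genes tested (grey) and the 9 members (orange); 42 genes lie outside the axes. Fgf7 and Etv1 lie at the lower left, at -0.75 and -0.46 and at -0.975 and -0.57, and the other members lie within the central cloud.

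Whether Fgf7 and Etv1 passed depended on how the variance was modelled. With a trended and robust variance, limma gave adjusted p-values of 0.0114 for Fgf7 and 0.0038 for Etv1, and 375 genes passed in place of 18. With median centring in place of loess the adjusted p was 1 for both, with log2 ratios of -0.65 and -0.61 for Fgf7 and of -0.86 and -0.73 for Etv1 on the arrays. In the authors' deposited table the columns gave -0.633 and -0.787 for Fgf7 and -1.18 and -0.614 for Etv1, and their adjusted p-values were 0.644 and 0.567. With median centring and in the deposited table, Fgf7 and Etv1 were thus at least 1.5-fold lower on both arrays, unlike with loess. With the scanner software's processed signals Etv1 was so too (-0.97 and -0.59), but Fgf7 was not (-0.74 and -0.51). The share of all genes at that fold was not counted under these settings, so these folds are not set against a background.

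**Figure D4:**
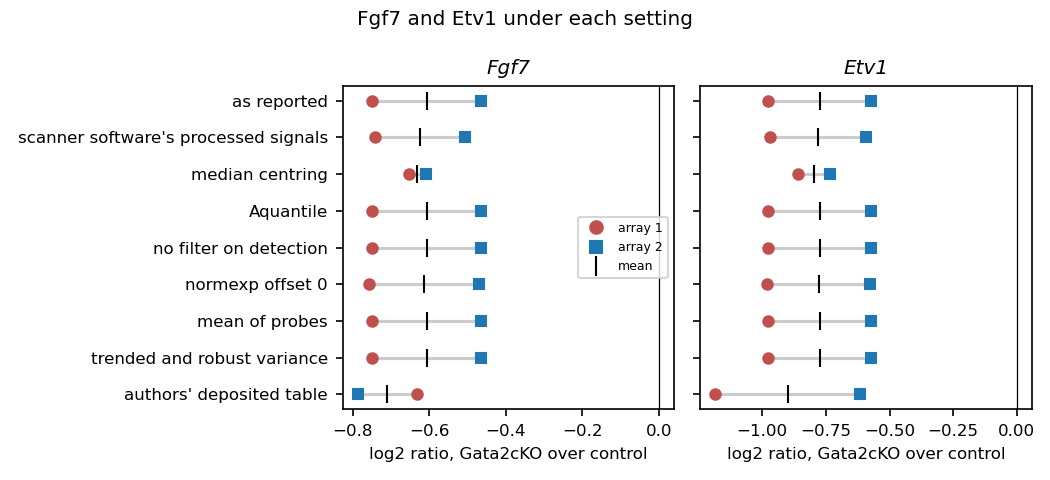
Log2 ratio of Gata2cKO over control for Fgf7 (left) and Etv1 (right) on array 1, on array 2 and as their mean, as reported and under 8 other settings. All values lie below 0, with means from -0.71 to -0.61 for Fgf7 and from -0.90 to -0.77 for Etv1.

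Several marker lists of other cell types were also lower in the RNA labelled Gata2cKO. Over all genes tested, 26.2% were lower and 27% were higher on both arrays. Neuron and glia markers were lower on both arrays in 14 of 15 genes, with a median log2 ratio of -1.05. Their summed signal was 57380 and 44080 in control and 23920 and 23950 in Gata2cKO RNA, and none was below background. Smooth muscle markers were lower on both arrays in 9 of 11 genes tested (median -0.49), with sums of 210300 and 186700 in control and 157900 and 149400 in Gata2cKO RNA, and Lmod1 was not above background. All 11 macrophage markers tested were lower on both arrays (median -0.338), with sums of 61580 and 59810 in control and 48420 and 47060 in Gata2cKO RNA. Markers of the ureteric mesenchyme were lower on both arrays in 4 of 12 genes and higher in 4 (median -0.0245). Their sums were 509700 and 455300 in control and 458000 and 467200 in Gata2cKO RNA. Erythroid markers had a median of -0.174, and their summed signal differed in opposite directions on the arrays. It was 498700 in control and 816600 in Gata2cKO RNA on array 1, and 822400 and 385400 on array 2. Medians were -0.12 for endothelial, -0.522 (-0.258 and -0.813 on the arrays) for skeletal muscle and 0.135 for kidney markers. The part of these cell types in the values of Fgf7 and Etv1 was not tested.

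The rest of the pathway was described by 7 lists with 97 gene names on the array, of which 86 were tested. None passed an adjusted p of 0.05 (limma), and at an unadjusted p under 0.05 there were 6 lower and 8 higher, against 3.41% and 3.75% of all genes. Of the 86, 15 were lower on both arrays, 30 were higher on both and 41 had opposite signs. Over all genes tested the shares were 26.2%, 27% and 46.8%, and they also apply to the counts of each list below. The median log2 ratio of the 86 was 0.0318.

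Among 14 other ligand genes tested, 3 were lower and 5 higher on both arrays (median 0.0379). Fgf18, a ligand of mesenchymal receptor forms, had the lowest ratio of these ligands. The log2 signals of Fgf18 were 13.46 and 13.34 in control and 13.08 and 12.75 in Gata2cKO RNA. The groups of Fgf18 did not overlap, and its mean ratio was -0.48 ± 0.159 (SD, n = 2; limma adjusted p = 0.346). Fgf14, an intracellular FGF homologue that binds sodium channels, was at 0.34 (adjusted p = 0.528). Fgf9, an epithelial ligand, was at 0.0013 and 0.10 on the arrays, Fgf8 at -0.10 and 0.23, and the Fgf2 probe was not well above background. In the authors' deposited table Fgf18 was at -0.70 and Fgf9 at -0.51.

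Of 7 receptor and co-receptor genes tested, 4 were higher and 1 was lower on both arrays (median 0.103). Flrt2, a membrane protein gene of a family that binds FGF receptors, was at 0.41 and 0.54 on the arrays (adjusted p = 0.318). Fgfr3 was at 0.21 (adjusted p = 0.767; -0.0881 in the authors' deposited table) and the decoy receptor gene Fgfrl1 at -0.02. Fgfr4 was at 0.17 and 0.04 on the arrays by the brighter of its 2 probes above background. The mean ratio of Fgfr4 was 0.10 by that probe and 0.0014 as the mean of both probes. Of 16 genes for heparan sulfate and FGF binding, 3 were lower and 6 higher on both arrays (median 0.04). Sulf1, which encodes an enzyme that trims heparan sulfate, was at -0.62 on array 1 and -0.16 on array 2. The proteoglycan gene Sdc2 was at 0.31 and 0.40 on the arrays. The authors' deposited table gave larger means for Sdc2 (0.767), Fgf14 (0.67), Flrt2 (0.768) and Fgfr4 (0.407).

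Genes of signal transduction had the narrowest range, from -0.222 for Map2k2, whose product activates ERK, to 0.14. Their median was 0.0213 over 17 genes tested. Mapk3, which encodes an ERK itself, was at 0.05 and -0.26 on the arrays. Of 13 other feedback inhibitor genes tested, 3 were lower and 4 higher on both arrays (median 0.0379). The lowest of them was Il17rd, which encodes the membrane inhibitor Sef, at -0.46 and -0.38 on the arrays (mean -0.42 ± 0.0609, SD, n = 2; adjusted p = 0.387). Il17rd had log2 signals of 12.19 and 12.15 in control and of 11.73 and 11.78 in Gata2cKO RNA, with no overlap. Errfi1, an inhibitor gene of EGF receptors, was at 0.22 and 0.49 on the arrays (-0.13 in the authors' deposited table). Spred1 was at 0.0092 and 0.48, so its mean came almost wholly from array 2. Spred2 was at 0.24 and -0.33 and Dusp5 at 0.14 and -0.06, with opposite signs, and Dusp4 at -0.15 and -0.03.

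Of 13 other response genes of ERK and ETS factors tested, 0 were lower and 3 were higher on both arrays (median 0.013). The immediate early genes Egr1 and Fos had the largest ratios, at 0.48 and 0.41 (adjusted p = 0.363 and 0.453), and were at 0.04 and -0.06 in the authors' deposited table. Etv4, the third factor of the subfamily, was at -0.38 on array 1 and 0.14 on array 2, and the cell cycle gene Ccnd1 at 0.11 and -0.09.

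**Figure D5:**
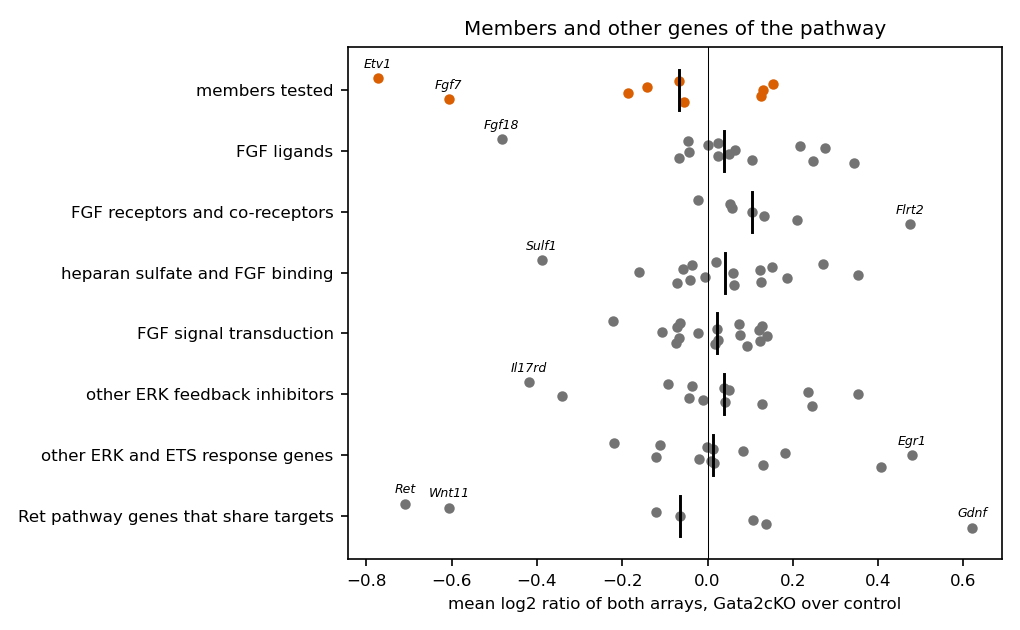
Mean log2 ratio of both arrays, Gata2cKO over control, for the 9 members tested and for each gene tested of 7 pathway lists (points), with the median of each list (black bar). Etv1 (-0.77) and Fgf7 (-0.61) stand apart from the other members, and list medians lie between -0.0664 and 0.103.

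The receptor gene Ret drives some of the same ETS and Sprouty genes in the ureteric epithelium. Which cells the Ret signal came from in this RNA was not tested. Ret was at -0.96 and -0.45 on the arrays (adjusted p = 0.263; mean -0.71, and -0.43 in the authors' deposited table) and its target Wnt11 at -0.57 and -0.64 (adjusted p = 0.197), while the Ret ligand gene Gdnf was at 0.15 and 1.09 (adjusted p = 0.637; mean 0.62, and 1.12 in the authors' deposited table).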

How the data were processed

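Each array held 1 control and 1 Gata2cKO RNA in opposite dyes. The authors' deposited scanner files give intensity on a linear scale, from Agilent Feature Extraction 10.7.3.1 per the submitters' processing notes and the file headers. They also hold a log10 ratio and flags (0 or 1, other values) per the file headers, of which the log10 ratio was not used. The authors' deposited value table holds a signed fold score with no value between -1 and 1. In its columns for arrays 1 and 2, 28% and 28.3% of probes had a score of size 1, a log2 value of 0. The sources used here do not give how this value table was made. Its columns correlated with the scanner log2 ratios at 0.443 and 0.376, which set their direction.

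Mean signals were corrected by normexp (offset 50) and normalized by loess (span 0.3) within arrays, leaving out 255 and 178 outlier spots, with controls at weight 0. No spot was saturated (0 on both arrays). Spots of a probe were averaged after each ratio had been turned to Gata2cKO over control. Single-RNA signals were also Aquantile normalized. Probes well above background in both control or both Gata2cKO channels were kept, and the brightest probe stood for its gene. RefSeq accessions (GRCm38.p6) named 26412 probes and the file named 13017. Ratios were tested against 0 with limma 3.58.1 in R 4.3.3 (1 residual degree of freedom, prior 4.68, prior SD 0.163), two-sided and Benjamini-Hochberg adjusted. The functions were tested on simulated data.

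The members and lists were chosen with earlier results of these data known. All members were described. From each list were named the genes past the threshold, failing that the 2 strongest by the smaller of the ratios on the arrays, where both had 1 sign, and genes a reader looks for first, except 1 gene that is not reported here. With 2 arrays, genes were not ranked by likeness of pattern, and the number of arrays limits the precision.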

Additional observations from a re-analysis of the deposited data

Results flagged for a closer look

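For 3 members the array of female RNA and that of male RNA gave opposite signs. Dusp6 was at -0.07177 on the female array and 0.3804 on the male array, Fgfr1 at -0.2205 and 0.08778, and Spry1 at -0.117 and 0.0058. The difference between the arrays was not tested, with 1 array of each sex, and sex cannot be told apart from dye orientation. Opposite signs were seen in 46.8% of all genes tested.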

How the results depend on the processing

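The count of genes past an adjusted p of 0.05 by limma was 18. It was 173 with the scanner software's processed signals, 54 with no filter on detection, 47 with a normexp offset of 0 and 375 with a trended and robust variance. It was 0 with median centring and 0 in the authors' deposited table, with 492 and 973 genes at an unadjusted p under 0.05, against 1470. The members past the threshold went from 0 to 2 with a trended and robust variance, by gene and by probe (Fgf7 and Etv1). It stayed at 0 under the other 7 settings by gene, each with 2 at an unadjusted p under 0.05, and under the other 6 run by probe. Of the other pathway genes 4 passed with that variance (Fgf18, Flrt2, Ret and Wnt11). With the processed signals 1 passed, Fgf15 at 0.84 (0.22 with loess), named here after its values were seen. In the authors' deposited table the sign turned for Dusp6 (-0.0303), Fgfr3 (-0.0881), Errfi1 (-0.13), Fos (-0.0617), Fgf9 (-0.51), Mapk3 (0.0526) and Spred2 (0.18), and Ccnd1 turned with processed signals (-0.0037) and median centring (-0.057). The cause was not tested. Leaving out an array leaves no residual degree of freedom, so counts could not be made and the value of the remaining array stands beside each member. Each array held both RNAs, so the ratio tested already pairs them within an array. The arrays form 1 group, and no further pairing was fitted. Spry4 and the second Etv1 probe were limited by signal over background.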

Other observations

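The 250 bases before the annotated starts in RefSeq (GRCm38.p6) were searched for a GATA motif (AGATAA or TGATAA) and an ETS motif (GGAAGT), on both strands. There were 10 such windows for 8 of the members. The GATA motif was in 0 of them, Fgf7 and Etv1 included, and in 16.6% of all 32851 windows. The ETS motif was in 1, an Etv5 window, and in 19.7% of all. A window without a match says only that these letters are not in it.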
